A study of Mus musculus with 9 samples.

Results

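The 9 genes described here encode surface proteins that have been used or proposed to enrich undifferentiated spermatogonia by cell sorting: Epha2, Pvr, Thy1, Itga6, Itgb1, Cdh1, Epcam, Cd24a and Mcam. They were listed by name, with earlier results of these data known, and each matched 1 of the 23813 entries of the expression table. Transcripts were measured by RNA sequencing in spermatogonia sorted from testes of Id4-eGfp transgenic mice (strain LT-11B6, on a C57BL/6 background) at postnatal day 6. All groups carry this transgene, which drives EGFP from Id4 sequences. The groups were all ID4-EGFP+ cells (3 libraries), the top 1/3 of ID4-EGFP+ cells by antibody signal for TSPAN8, a tetraspanin (TSPAN8-high, 3 libraries), and the bottom 1/3 (TSPAN8-low, 3 libraries). The cells between the fractions belong to neither, so the whole population is not the sum of the other groups. Each library is a separate cell preparation from pups per the labels. The sources used here do not state whether litters differed, so the tests see only the spread between preparations, which may be technical. Populations stained for EPHA2 or PVR are named in the labels' protocols and were not analysed here.

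Undifferentiated spermatogonia hold the stem cells of the testis, which lie on the basement membrane of the seminiferous tubule and either renew themselves or give rise to progenitors that commit to differentiation. Because a living stem cell can be isolated only by what it shows on its surface, adhesion proteins have long served as handles: integrin chains that bind laminin of the basement membrane, the GPI-anchored protein THY1, the junction proteins E-cadherin and EPCAM, and the immunoglobulin-type molecule MCAM. Such proteins are shared with progenitors, and in mixed testis cells several are also carried by somatic cells, so they enrich stem cells rather than define them. TSPAN8 was used here to divide cells that were already positive for the Id4 reporter, a reporter whose brightest cells are known for stem cell activity in transplantation.

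Promoter sequence was at hand for 4 of the 9 genes (Epcam, Epha2, Itgb1 and Mcam) in the RefSeq table of build GRCm38.p6, and 2 are shown because Epha2 and Mcam, which passed the test between the fractions below, share a word close to the start. Cdh1 also passed, but its promoter was not at hand, so a link between the word and passing was not tested. The word is TGACGTCA, the palindromic cAMP response element, which is its own reverse complement, so that both strands are searched together. The 250 bases before the Epha2 start lie at chr4:141300971-141301220 (plus strand) and the Mcam stretch of 30 bases at chr9:44134618-44134647 (plus strand). Capitals mark the word.
Epha2: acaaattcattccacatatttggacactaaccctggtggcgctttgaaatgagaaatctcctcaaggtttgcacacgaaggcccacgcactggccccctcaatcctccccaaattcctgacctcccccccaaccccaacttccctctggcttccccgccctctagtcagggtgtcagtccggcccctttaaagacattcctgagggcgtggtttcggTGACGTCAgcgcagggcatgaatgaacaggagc
Mcam: ccccgccccccTGACGTCAgcccccgacag
The word began 33 bases before the Epha2 start and 29 bases before the Mcam start, and it was not among the 250 bases before the Epcam or the Itgb1 start. Of 32851 mouse promoters of this length in the table, 508 (1.55%) hold it. The E-box CANNTG, also its own reverse complement and searched because repressors of Cdh1 bind such words, occurred 2 times before Epcam, 1 time before Mcam and not before Epha2 or Itgb1, while 66.2% of the promoters hold it. The motifs were chosen after the sequences were seen, and a match describes letters, not a bound site.

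Levels are given as FPKM, fragments scaled by transcript length and by the mapped fragments of a library, so they can be compared between genes. Over the 9 libraries the mean level was 113 FPKM for Epcam, 47.6 for Itgb1, 38.9 for Mcam, 33.7 for Cd24a, 6.19 for Itga6, 1.94 for Cdh1, 0.866 for Epha2, 0.442 for Pvr and 0.432 for Thy1. Epcam thus stood above 94.3% of the 23045 genes with their own symbol, and its lowest library stood above every library of the other 8 genes. Across libraries the ranges of Itgb1, Mcam and Cd24a overlapped each other, as did Cdh1 with Epha2, and Epha2 with Pvr and Thy1. Within every single library, however, Itgb1 stood above Cd24a, Cdh1 above Epha2, and Epha2 above Thy1. The order of Mcam against Itgb1 and Cd24a, and of Pvr against Epha2 and Thy1, changed between libraries. Pvr and Thy1 stood below 1 FPKM in all 9 libraries, although both proteins have served to sort these cells. The order also depended on the fraction: by mean level Mcam led Itgb1 and Cd24a in TSPAN8-high and came after both in TSPAN8-low.

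**Figure D1:**
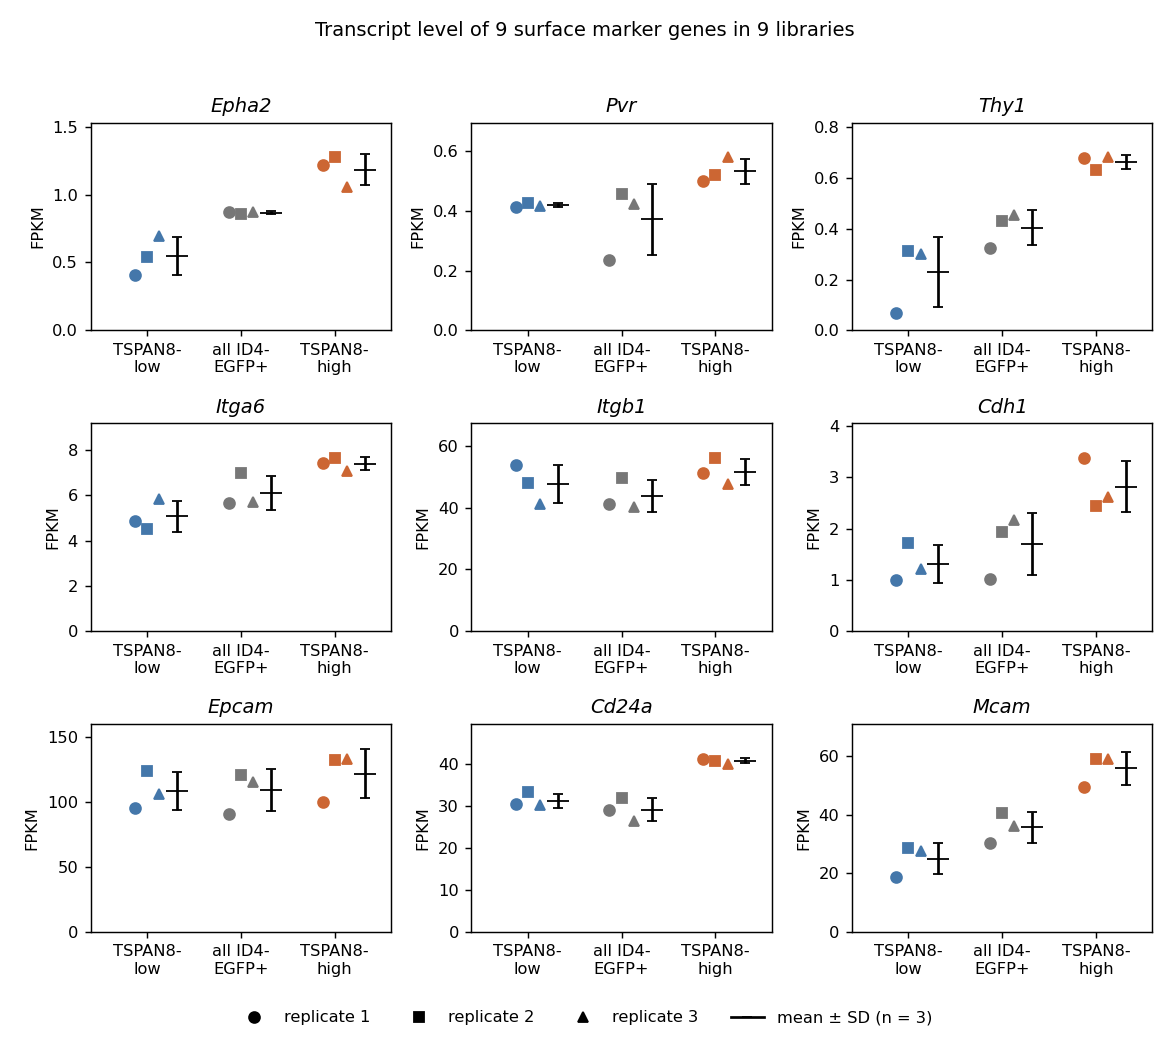
Transcript level in FPKM of each of the 9 genes (vertical axes from 0, 1 panel per gene) in TSPAN8-low, all ID4-EGFP+ and TSPAN8-high libraries; symbols give the replicate and bars the mean ± SD of 3 libraries. Mcam climbs from 25.0 to 35.7 to 55.9 FPKM without overlap between groups, while Epcam and Itgb1 overlap in every pair of groups.

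The comparison of the fractions asked whether the other surface markers follow TSPAN8 at the transcript level. In limma, on log2(FPKM + 1) with Benjamini-Hochberg adjustment over 11142 genes, Mcam, Cdh1 and Epha2 passed the threshold of 0.05, all higher in TSPAN8-high. These are 3 of the 7 members that could be tested, where 3.41% of all tested genes passed as higher. Epha2 met the minimum for testing (1 FPKM in at least 3 libraries) only through its 3 TSPAN8-high libraries, so its test in this fit is conditioned on the group where it is high. The libraries were taken as paired by replicate number, a pattern in the data that the labels do not state. With the number as a block Itga6 and Cd24a also passed, giving 5 of 7, against 11.8% of all tested genes. Pvr and Thy1 fell under this minimum. With a minimum chosen after the data were seen (mean of 0.3 FPKM over the 9 libraries, 13047 genes) all 9 members were fitted. Of these, Mcam and Epha2 passed (2 of 9, against 2.77% of genes), and with the block Mcam, Epha2, Cdh1, Itga6, Cd24a and Thy1 (6 of 9, against 9.53%). With the authors' normalized values, a common median or quantile normalization, only Mcam passed without the block, and 3, 2 and 2 members with it. These were Mcam and Cdh1 each time, and Cd24a with the authors' normalized values. Epha2 and Itga6 passed under none of these normalizations. In bulk libraries, fewer cells with a transcript and less of it per cell cannot be told apart.

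Mcam, which encodes an immunoglobulin-superfamily adhesion molecule also called CD146, was the member with the largest difference on the log2(FPKM + 1) scale. By the ratio of mean FPKM the scarce Thy1 had a larger one (2.91 against 2.23). Its level was 49.4, 59.2 and 59.0 FPKM in the TSPAN8-high libraries (replicates 1, 2 and 3), 30.2, 40.7 and 36.3 in all ID4-EGFP+ and 18.8, 28.7 and 27.5 in TSPAN8-low. Every TSPAN8-high library stood above every library of all ID4-EGFP+ cells, and these above every TSPAN8-low library, while replicate 1 was the lowest of its group each time. The means were 55.9 ± 5.60, 35.7 ± 5.25 and 25.0 ± 5.40 FPKM (SD, n = 3 each). Within replicate numbers the ratio between the fractions was 2.62, 2.06 and 2.14. The log2 difference was 1.14 (SE 0.18, 95% interval 0.75 to 1.54, adjusted p = 0.00688, and 0.000162 with the block). Mcam kept its call when any 1 library was left out, and lost it without the block when replicate 2 or replicate 3 of all groups was left out (adjusted p = 0.0913 and 0.0641). Mcam shares exon positions with an antisense gene, Gm10687, in GENCODE M21, which has no entry in the table, and the library kit does not mark strand.

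Epha2 encodes a receptor tyrosine kinase that binds ephrin-A ligands on neighbouring cells, and the protein served for a sort of its own in the study. The libraries read 1.22, 1.27 and 1.05 FPKM in TSPAN8-high, 0.873, 0.856 and 0.874 in all ID4-EGFP+, and 0.411, 0.538 and 0.695 in TSPAN8-low. The groups were ordered as for Mcam, without overlap in any pair, and all ID4-EGFP+ cells had a mean of 0.868 with an SD of 0.0101. The ratio between the fractions was 2.97, 2.37 and 1.52 within replicate numbers. On the log2(FPKM + 1) scale the change of scarce transcripts is understated. In the fit with the lower minimum, which does not depend on which group is high, the difference was 0.50 (SE 0.12, 95% interval 0.24 to 0.75, limma adjusted p = 0.0371, and 0.0219 with the block). The fit with the minimum of 1 FPKM, which Epha2 met only through TSPAN8-high, gave an adjusted p of 0.0440, and 0.0250 with the block. In that fit, without any 1 of the 9 libraries the adjusted p rose past 0.05, up to 0.161. With the block, 4 libraries mattered in this way, replicates 1 and 2 of either fraction (adjusted p up to 0.105).

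Pvr encodes the poliovirus receptor, a nectin-like adhesion protein, and was the other surface protein with its own sort. Its level was 0.500, 0.521 and 0.580 FPKM in TSPAN8-high, 0.236, 0.457 and 0.424 in all ID4-EGFP+, and 0.414, 0.428 and 0.417 in TSPAN8-low. The fractions did not overlap, yet they lay close together, with ratios of 1.21, 1.22 and 1.39 within replicate numbers. Under the lower minimum the log2 difference was 0.11 (95% interval -0.13 to 0.35, limma adjusted p = 0.587, and 0.528 with the block).

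Thy1 encodes a small GPI-anchored glycoprotein that was among the early markers used to enrich stem cells from the mouse testis. It read 0.677, 0.631 and 0.681 FPKM in TSPAN8-high, 0.326, 0.430 and 0.455 in all ID4-EGFP+, and 0.0694, 0.314 and 0.301 in TSPAN8-low. No group overlapped another, and TSPAN8-low replicate 1 stood far below the other 8 libraries. That library gives replicate 1 a ratio of 9.77, against 2.01 and 2.27 in the other replicate numbers. Under the lower minimum the log2 difference was 0.44 (SE 0.12, 95% interval 0.19 to 0.70, limma adjusted p = 0.0544), and 0.0289 with the block. With no minimum the adjusted p was 0.0468.

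Among the integrins, Itga6 encodes the alpha-6 chain, which pairs with the beta-1 chain encoded by Itgb1 to bind laminin. Itga6 read 7.43, 7.64 and 7.08 FPKM in TSPAN8-high, 5.66, 6.97 and 5.69 in all ID4-EGFP+, and 4.84, 4.53 and 5.84 in TSPAN8-low. Each TSPAN8-high library was above every other library, while TSPAN8-low replicate 3 stood within the range of all ID4-EGFP+ cells. The ratio between the fractions was 1.46 by the means, and the log2 difference was 0.47 (SE 0.15, 95% interval 0.15 to 0.79, adjusted p = 0.0826, and 0.0314 with the block).

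Itgb1 read 51.0, 56.0 and 47.6 FPKM in TSPAN8-high, 41.2, 49.6 and 40.3 in all ID4-EGFP+, and 53.6, 47.8 and 41.2 in TSPAN8-low. All groups overlapped, and Itgb1 was the only member that was lower in TSPAN8-high within a replicate number (replicate 1, ratio 0.952). Its log2 difference was 0.12, with a 95% interval of -0.21 to 0.45 (adjusted p = 0.685, and 0.493 with the block), so a log2 difference of up to 0.45 could not be told from none. There were 6.97 ± 0.314 times as many FPKM of Itgb1 as of Itga6 in TSPAN8-high and 9.57 ± 2.18 times in TSPAN8-low (SD, n = 3 each). This ratio overlapped between the fractions (6.86, 7.33 and 6.73 against 11.1, 10.6 and 7.06) and did not pass an exact two-sided permutation test (p = 0.2, where 3 libraries against 3 can give no less than 0.1).

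Cdh1 encodes E-cadherin, the calcium-dependent protein of adherens junctions that marks undifferentiated spermatogonia among germ cells. It read 3.38, 2.44 and 2.63 FPKM in TSPAN8-high, 1.02, 1.93 and 2.17 in all ID4-EGFP+, and 1.00, 1.73 and 1.21 in TSPAN8-low. TSPAN8-high stood above the other groups in every library, and the other groups overlapped. The ratio between the fractions varied from 3.37 in replicate 1 to 1.42 in replicate 2 and 2.18 in replicate 3. The log2 difference was 0.73 (SE 0.19, 95% interval 0.31 to 1.15, adjusted p = 0.0496, and 0.0186 with the block). The call without the block lay at the threshold: it was lost without any 1 of 8 libraries, and kept only without all ID4-EGFP+ replicate 1 (adjusted p from 0.0333 to 0.136). With the block, leaving out TSPAN8-high replicate 1, TSPAN8-low replicate 1 or TSPAN8-low replicate 3 ended it (adjusted p up to 0.0984). Under the lower minimum Cdh1 did not pass without the block (limma adjusted p = 0.0568, and 0.0268 with the block).

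Epcam encodes a homophilic epithelial adhesion molecule that is present through the spermatogonial population. It read 100.03, 133 and 134 FPKM in TSPAN8-high, 90.9, 121 and 115 in all ID4-EGFP+, and 95.3, 124 and 106 in TSPAN8-low. Replicate 1 was the lowest library of each group, and the groups overlapped throughout. The log2 difference was 0.16 (95% interval -0.22 to 0.54, adjusted p = 0.624, and 0.294 with the block). The ratio of means was 1.12, and only Itgb1, at 1.08, had a smaller one. Given the interval, a log2 difference of up to 0.54 could not be told from none.

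Cd24a encodes a small GPI-anchored glycoprotein that is heavily glycosylated. It read 41.2, 40.8 and 40.1 FPKM in TSPAN8-high, 29.0, 31.8 and 26.4 in all ID4-EGFP+, and 30.4, 33.2 and 30.1 in TSPAN8-low. TSPAN8-high libraries had an SD of 0.593 FPKM around a mean of 40.7 and stood above every other library, while TSPAN8-low and all ID4-EGFP+ cells overlapped. The ratio between the fractions was 1.30 by the means. The log2 difference was 0.37 (SE 0.13, 95% interval 0.09 to 0.66, adjusted p = 0.125, and 0.0304 with the block).

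**Figure D2:**
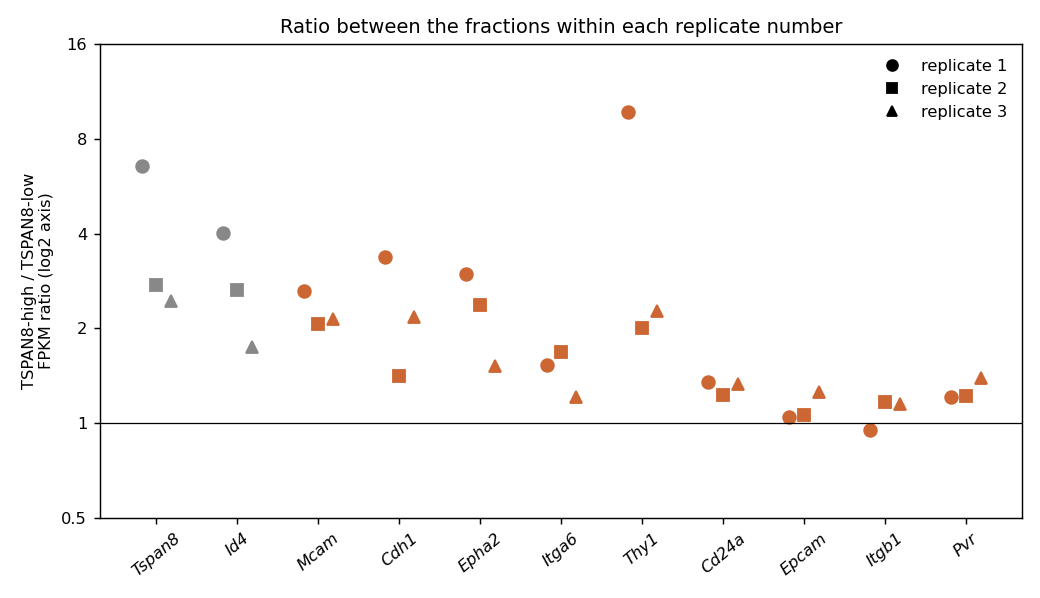
Ratio of FPKM in TSPAN8-high to TSPAN8-low (log2 axis) within each replicate number, for Tspan8 and Id4 (grey) and the 9 surface marker genes (orange). All ratios but that of Itgb1 in replicate 1 (0.952) lie above 1, and Thy1 in replicate 1 (9.77) stands apart from its other replicates.

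Set side by side, 7 of the 9 members were higher in all TSPAN8-high than in all TSPAN8-low libraries, the exceptions being Itgb1 and Epcam, and 15.8% of 13047 genes showed the same. Within replicate numbers, 8 of 9 were higher in TSPAN8-high every time, where 30.8% of the same genes were. All ID4-EGFP+ cells lay between the fractions by their mean for 6 of 9 members. For Pvr, Itgb1 and Cd24a their mean was below that of both fractions.

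Each fraction was also set against all ID4-EGFP+ cells, which asks which fraction departs from the starting population. These comparisons share libraries with each other and with the one above. Against all ID4-EGFP+ cells, 7 of 9 members stood higher in TSPAN8-high without overlap (Epha2, Pvr, Thy1, Itga6, Cdh1, Cd24a and Mcam), where 7.13% of 13047 genes did. No member passed in limma without the block (0 of 7, with 3 at an unadjusted p under 0.05, where 9.74% of all genes were; 0.0269% of all genes passed as higher). With the block Mcam and Cd24a passed as higher (2 of 7, against 1.23%). Mcam differed by 0.64 (95% interval 0.24 to 1.03, adjusted p = 0.196, and 0.00994 with the block) and Cd24a by 0.48 (0.19 to 0.76, adjusted p = 0.173, and 0.0339 with the block).

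TSPAN8-low stood below all ID4-EGFP+ cells without overlap for 3 of 9 members, Epha2, Thy1 and Mcam, where 10.6% of genes did. No member passed, with or without the block (0 of 7 each, with Mcam alone at an unadjusted p under 0.05 without it), and of all 11142 genes 0 passed without the block (910, or 8.17%, had an unadjusted p under 0.05) and 5 (0.0449%) with it. Mcam differed by -0.51 (95% interval -0.91 to -0.11, adjusted p = 0.600, and 0.0862 with the block). Cd24a, in contrast to its rise in TSPAN8-high with the block, differed by 0.10 in TSPAN8-low (95% interval -0.18 to 0.39).

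**Figure D3:**
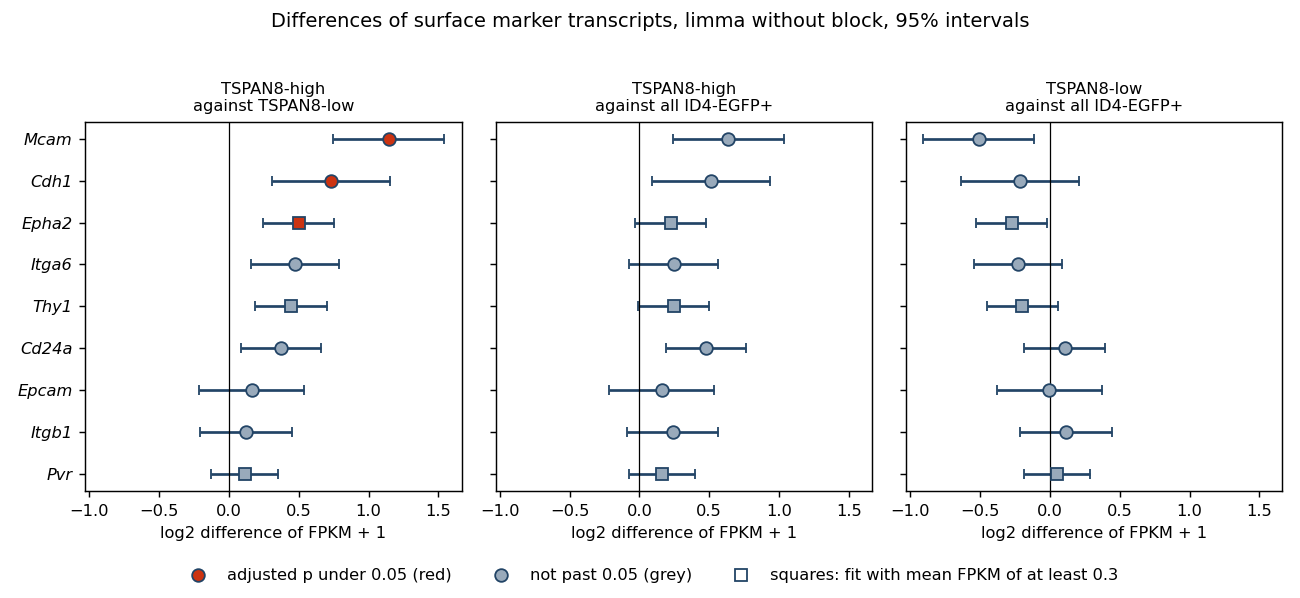
Difference in log2(FPKM + 1) with 95% intervals for the 9 genes in the 3 comparisons, from limma without the block; red points passed at an adjusted p under 0.05, and squares (Epha2, Thy1 and Pvr) come from the fit with a mean of at least 0.3 FPKM. Mcam (1.14), Cdh1 (0.73) and Epha2 (0.50) are the only red points, all in TSPAN8-high against TSPAN8-low. Cdh1 is drawn from the fit with the minimum of 1 FPKM. In the fit of the squares it did not pass (limma adjusted p = 0.0568).

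The partners of these proteins were taken from lists of related genes, chosen with earlier results of these data known; counts are of tested genes other than the 9. Counts at an unadjusted p under 0.05 are to be read against 22% of all tested genes in this comparison. Calls at the adjusted threshold are likewise to be read against all tested genes. Without the block 619 of 11142 genes passed, 380 of them higher. With it 2131 passed, 1313 of them higher and 818 lower. Of 3 other integrin genes tested, 1 rose in TSPAN8-high: Itgb5, whose chain pairs with alpha-V (9.49 against 4.71 FPKM, log2 difference 0.88, adjusted p = 0.0394). Itga1, a collagen-binding alpha chain, passed only with the block (0.51, adjusted p = 0.104, and 0.0488 with the block), and Itgae, the partner of beta-7 that binds E-cadherin, differed by -0.25 (adjusted p = 0.389). The median over the 3 was 0.51. Of 2 laminin genes tested, the ligand side of the alpha-6 beta-1 integrin, none passed and 0 had an unadjusted p under 0.05 (Lamc1 0.17 and Lamb1 0.05).

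Of 5 other Eph receptor and ephrin genes tested, none passed without the block (2 had an unadjusted p under 0.05) and 1 was higher with it, with a median log2 difference of -0.26. This was Ephb1, a receptor of ephrin-B ligands (0.47, adjusted p = 0.109, and 0.0408 with the block). At 0.674 ± 0.0872 FPKM in TSPAN8-low (SD, n = 3), Ephb1 met the minimum of 1 FPKM without any library of that fraction. Its test is thus conditioned on groups where it is higher. The ephrin-A ligands of EPHA2 pointed the other way, with Efna1 at 3.09 against 4.75 FPKM (log2 difference -0.48, adjusted p = 0.143, and 0.0566 with the block) and Efna3 at -0.34 (adjusted p = 0.249). Neither passed.

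Among 4 nectin-type genes tested around PVR, none passed without the block (2 had an unadjusted p under 0.05), and with it 1 was higher and 1 lower, with a median of 0.05. Pvrl2, which encodes nectin-2, was the higher (1.48 against 0.585 FPKM, log2 difference 0.63, adjusted p = 0.0529, and 0.0159 with the block). Pvrl3, which encodes nectin-3, a binding partner of PVR, was the lower (16.6 against 25.7 FPKM, -0.58, adjusted p = 0.207, and 0.00983 with the block). Mllt4, which encodes the nectin anchor afadin, differed by 0.06.

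Of 4 cadherin and catenin genes tested beside Cdh1, all were above 0 (median 0.30) and none passed without the block (2 had an unadjusted p under 0.05). Ctnna1, which encodes alpha-catenin, the link from E-cadherin to actin, passed with it (16.6 against 11.5 FPKM, log2 difference 0.49, adjusted p = 0.0770, and 0.0206 with the block). Ctnnd1, which encodes p120-catenin, and Ctnnb1, which encodes beta-catenin, differed by 0.39 and 0.21 (adjusted p = 0.141 and 0.447). Of 3 genes for repressors of Cdh1 that were tested, none passed with or without the block, and 0 had an unadjusted p under 0.05 (Twist1 0.33, Zeb1 -0.11 and Snai1 0.06).

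None of 3 partner genes of EPCAM and CD24 passed (the tetraspanin gene Cd9 0.34, the claudin gene Cldn3 -0.25 and the P-selectin gene Selp 0.03), nor did either of 2 immunoglobulin-type genes tested beside Mcam (Bsg -0.21 and Cd47 -0.02), and 0 of these 5 had an unadjusted p under 0.05. THY1 and CD24 need a GPI anchor, and of 22 genes for its synthesis or remodelling none passed without the block (3 had an unadjusted p under 0.05), with a median log2 difference of -0.11. With the block Gpaa1, of the transamidase that attaches the anchor, was higher (0.50, adjusted p = 0.0126) and Pigp and Pigw were lower (-0.49 and -0.54, adjusted p = 0.0242 and 0.0140).

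Other surface proteins of spermatogonia formed a list of their own: of 9 tested genes, 5 rose and 1 fell in TSPAN8-high without the block, with a median log2 difference of 0.77 (over all 11142 genes the median was 0.05). This list holds Tspan8, the gene of the sorted protein. Tspan8 differed by 1.72 (adjusted p = 0.00246), Gfra1, which encodes the GDNF receptor, by 1.35 (adjusted p = 0.00551), and Kit, which encodes the receptor that marks differentiating spermatogonia, by -1.38 (adjusted p = 0.00264).

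Genes whose levels followed the members most closely over the 9 libraries were found by Pearson's r of log2(FPKM + 1), which is a description, since the libraries share their groups. Mcam was most like Fst, which encodes the activin antagonist follistatin (r of 0.991), and Ell3, which encodes an elongation factor (0.990). Epha2 was most like Gfra1 (0.974) and Med14, of the Mediator complex (0.971). Cdh1 was most like the potassium channel gene Kcnc2 (0.950) and the AP-1 gene Junb (0.933). The nearest genes of Itga6 were Atxn10 (0.974) and C920006O11Rik (0.970), those of Cd24a Armcx2 (0.959) and Slxl1 (0.948), those of Itgb1 Azin1 (0.980) and Cep70 (0.973), and those of Epcam AU022751 (0.985) and Prkcsh (0.961).

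Relative depth was not counted from reads. It was estimated from very low FPKM values, by their most common ratio to all ID4-EGFP+ replicate 1 (65 to 89 entries per other library). Taking all ID4-EGFP+ replicate 1 as 1, the estimate was 1.01, 1.04 and 1.05 in TSPAN8-high and 0.856, 0.946 and 0.889 in TSPAN8-low. Replicates 2 and 3 of all ID4-EGFP+ stood at 1.03 and 0.915. The fractions thus did not overlap in estimated depth, and TSPAN8-low replicate 1, the shallowest library by this estimate, also had the lowest Thy1 and Epha2 values. The part of depth in the differences of scarce members was not tested, and the absolute depth is unknown. Summed markers of germ cells were between 2894 and 3877 FPKM in every library, and the germ cell genes Dazl and Mael stood at or above 1148 and 828 FPKM. Since surface markers are shared with somatic cells, markers of those cells were summed too. Sertoli cells are the supporting cells of the tubule, and their 9 markers in the table summed to 62.6, 61.4 and 165 FPKM in TSPAN8-high, 12.3, 32.3 and 80.2 in all ID4-EGFP+, and 9.86, 13.2 and 94.8 in TSPAN8-low. All 4 that were tested were higher in TSPAN8-high with the block and none without it, with Clu at 34.6 ± 22.6 against 12.5 ± 16.6 FPKM and Cst12 at 25.9 ± 16.3 against 9.88 ± 12.4 (SD, n = 3 each). The other tested markers were Aard, at 19.2 ± 7.85 against 8.85 ± 7.82 FPKM, and Inha, at 15.0 ± 12.8 against 7.31 ± 10.9. Sox9, Wt1 and Amh reached at most 0.197, 0.616 and 0.714 FPKM, and no marker was at 0 in every library. The means of Sox9, Wt1 and Amh were 0.103, 0.314 and 0.381 FPKM in TSPAN8-high against 0.0911, 0.235 and 0.0471 in TSPAN8-low. Gata4 and Dhh averaged 0.388 and 0.476 against 0.165 and 0.225 FPKM. Within each replicate number the Sertoli sum was higher in TSPAN8-high, as were 8 of the 9 members, and the part of Sertoli cell RNA in the differences was not tested. All 6 endothelial markers, of cells known for MCAM and PVR, stood under 1 FPKM in every library, with sums of 0.840 to 1.71. Leukocyte markers, of which 6 were in the table, summed to 14.1, 20.4 and 22.6 FPKM in TSPAN8-high and 6.97, 11.6 and 14.9 in TSPAN8-low. The leukocyte sum was thus higher in TSPAN8-high within each replicate number. Cd68 stood at 13.0 against 8.76 FPKM (limma adjusted p = 0.192, and 0.0384 with the block), while Cd52 went the other way (1.85 against 2.10). The part of leukocytes in the Thy1 and Cd24a differences was not tested. Peritubular myoid markers summed to 3.66, 3.57 and 7.63 FPKM in TSPAN8-high and 1.55, 2.44 and 3.73 in TSPAN8-low. Interstitial markers summed to 3.83, 14.2 and 10.7 against 1.94, 1.78 and 9.39 FPKM, with Pdgfra at 2.51 against 1.28 FPKM (limma adjusted p = 0.0535, and 0.0180 with the block). Both sums were thus higher in TSPAN8-high within each replicate number, and their part in the member differences was not tested either. Sums over all libraries were 0.202 to 6.48 FPKM for Leydig and 0.156 to 3.62 for red blood cell markers.

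**Figure D4:**
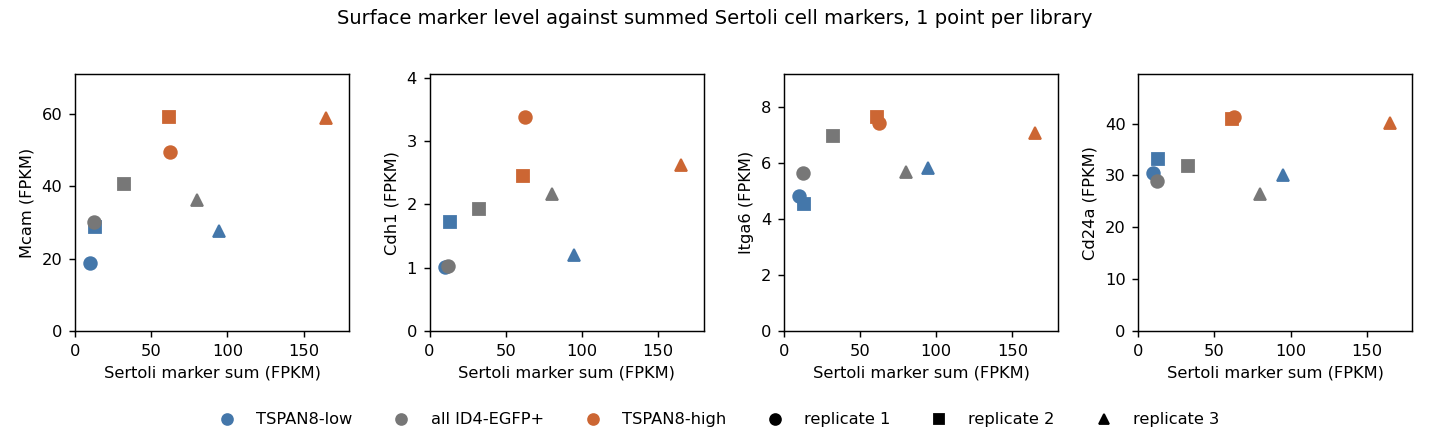
Level of Mcam, Cdh1, Itga6 and Cd24a (FPKM, vertical axes) against the summed level of 9 Sertoli cell markers (FPKM, horizontal axis), 1 point per library, with colour for the group and symbol for the replicate. Within each replicate number, TSPAN8-high has both the higher Sertoli sum (62.6 against 9.86, 61.4 against 13.2 and 165 against 94.8 FPKM) and the higher level of each of the 4 genes.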

How the data were processed

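The authors deposited Cufflinks FPKM values per library, which were tested here, and a table of normalized signal values, whose method the sources used here do not state and which served only as an alternative. Per the submitters' processing notes, the tools included Cufflinks, Bowtie2 2.2.3.0, TopHat2 2.0.12 and FastQC, and the build was mm9. SMART-Seq v4 cDNA and Nextera XT libraries were used, per the labels' protocols. The absolute depth is unknown, which limits precision most for genes under 1 FPKM.

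Entries whose symbol occurs more than 1 time (262 symbols, 768 entries of 23813) were left out. Genes with at least 1 FPKM in at least 3 of 9 libraries (11142) went into 1 fit over 3 groups in R 4.3.3, with log2(FPKM + 1) as the response (limma 3.58.1, eBayes with a trend, two-sided tests), with Benjamini-Hochberg adjustment over all tested genes and a threshold of 0.05. Scripts were tested on simulated data. Libraries with the same replicate number in different groups deviated together (9 pairs, r of 0.265 to 0.481 across genes, against -0.456 to 0.277 for 18 other pairs), so the numbers were taken to pair the libraries, as a pattern in the data, and each comparison was also fitted with the number as block. Alternatives were a pseudocount of 0.1, other minimums, the authors' normalized values, a common median, quantile normalization, only the 6 libraries compared, and leaving out each library or replicate number. The mean minimum of 0.3 FPKM was added after the data were seen.

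Named genes were the 9 members, Tspan8 and Id4, up to 3 other tested genes per list with the smallest p, the 2 genes most like each tested member, and the 2 highest genes of each marker list, of which those that touch a result are printed. Sox9, Wt1, Amh, Gata4, Dhh, Aard, Inha, Pdgfra and Gm10687 were named after their values or positions were seen. Members and lists were chosen with earlier results of these data known. Exon overlap was read from GENCODE M21 and promoters from RefSeq (GRCm38.p6), which differ from the files' build, so no other coordinates are given. Plots used Python 3.11.15 and matplotlib 3.10.9.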

Additional observations from a re-analysis of the deposited data

How the results depend on the processing

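The 7 members tested with the minimum of 1 FPKM kept their direction in TSPAN8-high against TSPAN8-low under all alternatives run. Pvr and Thy1 were fitted under 3 alternatives only, changes of minimum or block that cannot alter the log2 difference (0.11 and 0.44). Their direction was thus not put to a test. Mcam passed under 35 of 37, Cdh1 under 14 of 36, Epha2 under 9 of 36, Itga6 and Cd24a under 6 of 37 each, and Itgb1 and Epcam under none. Epha2 met the minimum of 1 FPKM only through TSPAN8-high, and the same genes were kept when libraries were left out. Its tests are thus conditioned on the group where it is high, except with no minimum or the mean minimum of 0.3 FPKM. In place of 3, the number of members past the threshold was 1 with a pseudocount of 0.1, a mean minimum of 5 FPKM, the authors' normalized values, a common median or quantile normalization. Leaving out 1 library gave 1 to 2 members, and leaving out a replicate number of all groups 0 to 1.

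With the replicate block, 5 members passed, or 6 with the mean minimum of 0.3 FPKM. With 1 library left out as well the block gave 1 to 5, and 1 to 2 with a replicate number left out. Against all ID4-EGFP+ cells, TSPAN8-high had 2 members past the threshold with the replicate block, alone or with the authors' normalized values, a common median, quantile normalization or the mean minimum of 0.3 FPKM, and 0 to 2 with 1 library, or 0 to 1 with a replicate number, left out. Call counts over all genes in TSPAN8-high against TSPAN8-low, 619 here, ran from 10 to 2325, in TSPAN8-high against all ID4-EGFP+ (16 here) from 0 to 598, and in TSPAN8-low against all ID4-EGFP+ (0 here) from 0 to 28; 380 were higher and 239 lower, against 223 and 307 with the authors' normalized values, 228 and 362 with a common median, and 250 and 300 with quantile normalization. The cause was not tested.

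Signs changed only near 0, in TSPAN8-low against all ID4-EGFP+. Epcam (-0.0037) became 0.0230 with the authors' normalized values and 0.0870 with a common median, each with and without the block, and ranged from -0.13 to 0.09 with 1 library left out, with single values of 0.0772, 0.0407, 0.0108, 0.0865, 0.00728, 0.0649 and 0.0517. Itgb1 (0.12) became -0.0104 without replicate 1 of all groups. At levels under 1 FPKM (Pvr, Thy1, most Epha2 libraries) the unknown depth limits what can be told apart.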
